A study of Mus musculus with 4 samples.

Results

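The outer layers of skin hold water back with a lipid film that keratinocytes secrete and bond to their protein shell, and the 10 genes described here encode 9 enzymes and 1 transporter of the pathway that makes it. They were chosen by gene symbol as members of the acylceramide and lipoxygenase pathway, with earlier results of these data known. Shares over all genes are therefore set beside their counts as description and are no test. All 10 were found among the 24972 gene rows of the table. RNA had been sequenced from lower jaws of mouse embryos, as the dissected dental arch that carries the teeth, at embryonic day 17.5. The embryos were either homozygous for a variant of Ascl5, a basic helix-loop-helix transcription factor gene (genotype Ascl5Mut/Mut, 2 libraries, called mutant 18 and mutant 14 after their sample codes), or wild type at that gene (Ascl5WT/WT, 2 libraries, wild type 15 and wild type 20). The labels and design text name no other allele or treatment and give neither the strain nor the nature of the variant, and they do not say whether a library came from 1 embryo or a pool. P-values therefore measure the spread between these libraries, which may be partly technical.

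In epidermis the pathway starts with fatty acids that are elongated far beyond usual lengths, hydroxylated at their far end, joined to a sphingoid base as ceramide and esterified with linoleic acid to give acylceramide. The product is packed into lamellar granules and secreted, and a pair of lipoxygenases then oxidizes its linoleate so that the lipid can be bonded to the cornified envelope. Loss of these steps in people or mice gives ichthyosis, a scaling skin with a leaking barrier. Mouse epidermis builds this barrier late in gestation, at about the stage sampled.

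Ascl proteins bind E-boxes, short DNA motifs of the form CANNTG, so the promoter windows of the members are shown for the study's question about an Ascl5 variant. Each window holds the 250 bases before and the 50 bases after a transcript start in RefSeq, build GRCm38.p6, and 9 of the 10 members had one. The motif CAGCTG, an E-box typical of Ascl family binding, was searched on both strands (it reads the same on each) and was present in 3 of the 9 windows, those of Alox12b, Acer1 and Cers3, against 16.3% of 32851 windows in the whole table. The 3 windows are printed with CAGCTG in capitals, and that of Lipn, the member whose values went their own way, with the AP-1 motif TGANTCA in capitals. Alox12b lies at chr11:69156822-69157121, plus strand, Acer1 at chr17:56982077-56982376, minus strand, Cers3 at chr7:66743254-66743553, plus strand, and Lipn at chr19:34067108-34067407, plus strand. Among the printed windows, those of Cers3 and Lipn belong to transcript starts inside the gene, so each lies wholly within its gene.
Alox12b: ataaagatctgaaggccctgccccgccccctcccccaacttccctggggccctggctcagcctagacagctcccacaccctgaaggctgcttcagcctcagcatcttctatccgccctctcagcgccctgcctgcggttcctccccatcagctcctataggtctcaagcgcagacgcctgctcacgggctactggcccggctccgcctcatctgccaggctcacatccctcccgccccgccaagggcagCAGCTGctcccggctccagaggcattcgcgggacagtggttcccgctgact
Acer1: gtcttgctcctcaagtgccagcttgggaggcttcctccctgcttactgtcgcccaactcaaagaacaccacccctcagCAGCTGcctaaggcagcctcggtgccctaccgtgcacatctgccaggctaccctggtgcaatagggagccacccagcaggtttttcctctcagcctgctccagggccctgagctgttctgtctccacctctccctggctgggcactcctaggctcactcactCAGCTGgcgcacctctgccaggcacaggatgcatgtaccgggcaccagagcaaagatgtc
Cers3: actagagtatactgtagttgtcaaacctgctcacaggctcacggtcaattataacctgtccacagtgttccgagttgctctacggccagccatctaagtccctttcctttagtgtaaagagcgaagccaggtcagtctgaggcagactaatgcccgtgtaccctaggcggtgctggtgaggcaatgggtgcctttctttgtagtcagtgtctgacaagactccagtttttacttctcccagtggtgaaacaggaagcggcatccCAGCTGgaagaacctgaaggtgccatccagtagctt
Lipn: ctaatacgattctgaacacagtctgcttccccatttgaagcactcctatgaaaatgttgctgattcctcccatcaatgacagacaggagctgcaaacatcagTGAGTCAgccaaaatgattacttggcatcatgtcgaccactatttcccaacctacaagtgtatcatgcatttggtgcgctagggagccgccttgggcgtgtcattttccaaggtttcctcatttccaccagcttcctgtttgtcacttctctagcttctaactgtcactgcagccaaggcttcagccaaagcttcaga

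Counted from the start site, CAGCTG began at positions -172 and -10 in Acer1, at -1 in Alox12b and at 15 in Cers3. The looser E-box CANNTG, which includes CAGCTG, was in 8 of the 9 windows and in 72.3% of all windows. TGANTCA, searched on both strands, was in the Lipn window alone among the 9, beginning at -148, and in 7.81% of all windows. TATAAA was in the Sdr9c7 window (13.6% of all), and AACCNGTT, a motif of Grainyhead-like factors, was in none of the 9 (2.09% of all). These are letter matches and no test was made on them.

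Values are the authors' normalized counts, which summed to between 22134483 and 22578580 per library. Ascl5 itself was low, at 10.6 and 12.1 in mutant libraries 18 and 14, against 21.8 and 37.3 in wild-type libraries 15 and 20. Without a stated effect of the variant on its own mRNA, these levels do not check the genotype labels. Dental arch markers were present in all 4 libraries. The enamel gene Ambn was at 1383 and 540.0 in mutant 18 and 14 and at 802 and 2491 in wild type 15 and 20. Dmp1, a dentin and bone matrix gene, was between 4554 and 7026 in mutant and between 9197 and 9940 in wild type. The tooth transcription factor gene Msx1 was between 1313 and 1392 in mutant and between 1402 and 1999 in wild type. Dmp1 and Msx1 were thus lower in both mutant libraries, as were 14% of all genes tested. Mutant 14 stood apart by salivary gland RNA, and wild type 15 was the only library with high Xist, which silences an X in females (38619, against 5.005 to 12.7 in the others). Keratins of cornifying epidermis were abundant in every library, with Krt10 between 18842 and 75914. In such bulk RNA, fewer cells of a type and less RNA per cell cannot be told apart.

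All 10 genes had higher values in both mutant libraries than in both wild-type libraries, where 13.4% of the 17979 genes tested did so and 27.4% had no overlap in one direction or the other. Log2 fold changes, mutant minus wild type on log2(value + 0.5), ran from 0.85 for Cyp4f39 to 1.41 for Abca12, with a median of 1.09 beside 0.002 over all genes tested. All 10 were above 0, where 50.6% of all genes were, and 7 were at least 1, where 4.43% were. None passed the threshold of 0.05 in limma after Benjamini-Hochberg adjustment over all genes (smallest adjusted p = 0.310, for Elovl4), and only 0.0111% of all genes did. At an unadjusted limma p under 0.05 there were 9 of the 10, all but Lipn, where 4.27% of all genes were that low and 3.12% were that low and higher in mutant. That count was 3 without wild type 20, 4 with no mean-variance trend, 5 with sex as covariate, and 6 without mutant 14 or with robust shrinkage. For a single gene, the smallest p that exact two-sided permutation of 2 and 2 libraries allows is 0.333.

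The spread inside each genotype was large and ordered. In 9 of the 10 genes the libraries ranked mutant 14, mutant 18, wild type 15, wild type 20 from high to low, an order seen in 4.86% of all genes tested, and Lipn was the exception. Mutant 14 exceeded mutant 18 in 52% of all genes. For those 9, mutant 14 was 1.40 to 2.69 times mutant 18, and wild type 15 was 1.09 to 1.87 times wild type 20. Mutant 18 was 1.01 to 1.80 times the higher wild-type library and mutant 14 was 2.09 to 3.16 times it. Taken singly, mutant 18 was above both wild-type libraries in 31.8% of all genes and mutant 14 in 30.7%.

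**Figure D1:**
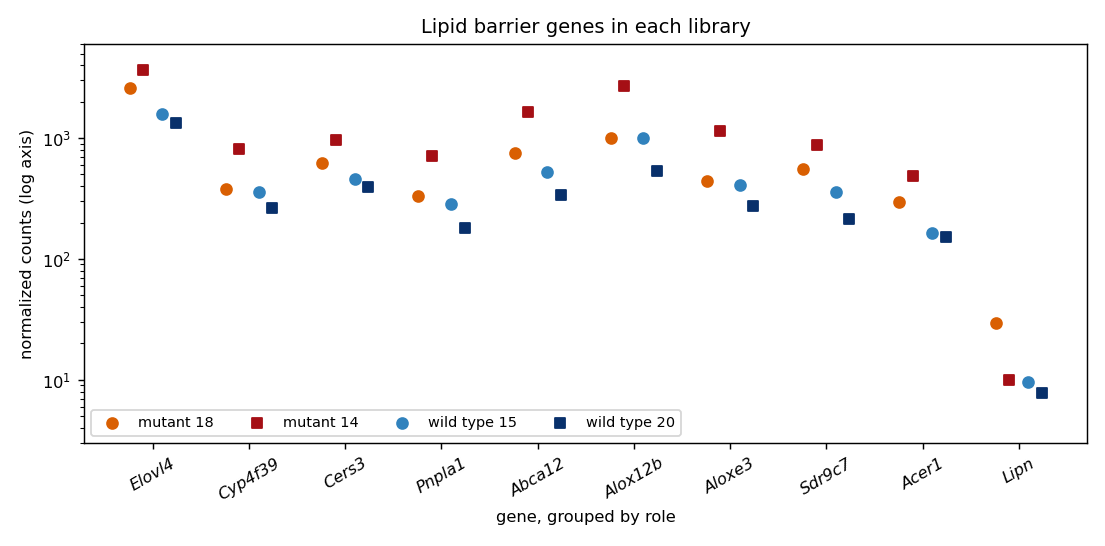
Normalized counts (log axis) of the 10 lipid barrier genes, with 1 point per library and the mutant libraries to the left of the wild-type libraries. Mutant 14 is the highest point for every gene but Lipn, and mutant 18 and wild type 15 nearly coincide for Alox12b, at 999.9 and 994.

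The first steps make the long acyl chain and the ceramide. Elovl4 (build GRCm38, as for all positions given, chromosome 9, 83778692 to 83806305), the elongase that makes ultra-long-chain fatty acids, was at 2584 and 3628 in mutant libraries 18 and 14 and at 1595 and 1329 in wild-type libraries 15 and 20. It had the smallest SE of the 10, with the lower mutant library 1.62 times the higher wild-type library, a log2 fold change of 1.07 (SE 0.19, 95% interval 0.63 to 1.51) and a limma adjusted p of 0.310. Cyp4f39 (chromosome 17, 32452697 to 32493320), counterpart of the human fatty acid omega-hydroxylase CYP4F22, was at 378 and 812 in mutant 18 and 14 and at 359 and 262 in wild type 15 and 20. Here mutant 18 exceeded wild type 15 by a factor of 1.05, and the log2 fold change was 0.85 (SE 0.34, limma adjusted p = 0.9999). Cers3 (chromosome 7, 66733118 to 66823692), the ceramide synthase that uses these chains, was at 624 and 965 in mutant 18 and 14 and at 462 and 391 in wild type 15 and 20. The genotypes did not overlap, though the mutant libraries lay farther from each other than mutant 18 lay from wild type 15, and the log2 fold change was 0.87 (SE 0.23, limma adjusted p = 0.616).

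The ratio of Cers3 to Elovl4 counts stayed nearly level, at 0.242 and 0.266 in mutant 18 and 14 and 0.290 and 0.294 in wild type 15 and 20. Pnpla1 (chromosome 17, 28858286 to 28890308), the transacylase that esterifies omega-hydroxyceramide with linoleate, was at 331 and 713 in mutant 18 and 14 and at 286 and 182 in wild type 15 and 20. Mutant 14 was 2.15 times mutant 18, and the log2 fold change was 1.09 (SE 0.37, limma adjusted p = 0.921). Abca12 (chromosome 1, 71243090 to 71414910), the transporter that loads glucosylceramide into lamellar granules, was at 755 and 1651 in mutant 18 and 14 and at 522 and 336 in wild type 15 and 20. It had the largest log2 fold change of the 10, at 1.41 (SE 0.36, 95% interval 0.58 to 2.25, limma adjusted p = 0.590). Abca12 shares chromosome 1 with Ascl5 but lies 64.6 Mb from it.

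The lipoxygenase pair had the largest SEs among the members other than Lipn. Alox12b (chromosome 11, 69157072 to 69169791), the 12R-lipoxygenase that oxygenates the linoleate of acylceramide, was at 999.9 and 2694 in mutant 18 and 14 and at 994 and 530.2 in wild type 15 and 20. Mutant 18 and wild type 15 thus differed by a factor of 1.01, and the log2 fold change of 1.18 (SE 0.45, limma adjusted p = 0.9999) came with the highest SE among the 9 genes other than Lipn. Aloxe3 (chromosome 11, 69125417 to 69149115), which turns the Alox12b product into an epoxy alcohol, was at 440.2 and 1134 in mutant 18 and 14 and at 407 and 273 in wild type 15 and 20. Its gene ends 7956 bases before Alox12b begins, on the same strand. The log2 fold change of Aloxe3 was 1.08 (SE 0.41, limma adjusted p = 0.9999).

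The lipoxygenase pair kept step across libraries, with Alox12b over Aloxe3 at 2.27 and 2.38 in mutant 18 and 14 and 2.44 and 1.94 in wild type 15 and 20. Sdr9c7 (chromosome 10, 127898535 to 127911761), the dehydrogenase that oxidizes the epoxy alcohol to a ketone, was at 553 and 884 in mutant 18 and 14 and at 360.1 and 214 in wild type 15 and 20. Unlike the lipoxygenases it stood clear of wild type in mutant 18 as well, by a factor of 1.54 over the higher wild-type library, and its log2 fold change was 1.33 (SE 0.30, limma adjusted p = 0.455). The ratio of Sdr9c7 to Aloxe3 was 1.26 in mutant 18 and between 0.780 and 0.885 in the other 3 libraries.

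Acer1 (chromosome 17, 56953490 to 56982126), the alkaline ceramidase of upper epidermis, was at 296 and 489 in mutant 18 and 14 and at 164 and 151 in wild type 15 and 20. The wild-type libraries agreed within a factor of 1.09, mutant 18 was 1.80 times the higher of them, and the log2 fold change was 1.27 (SE 0.26, limma adjusted p = 0.381). Lipn (chromosome 19, 34067058 to 34085946), a lipase of differentiating keratinocytes whose human counterpart is mutated in a late-onset ichthyosis, was at 29.7 and 10.05 in mutant 18 and 14 and at 9.54 and 7.85 in wild type 15 and 20. It was the only member that was higher in mutant 18 than in mutant 14, and in mutant 14 it was 1.05 times wild type 15. Its log2 fold change was 0.96 (SE 0.64, 95% interval -0.52 to 2.44, limma adjusted p = 0.9999), at a level where few reads carry the value. In GENCODE M21, Pnpla1 and Acer1 each overlap a gene on the opposite strand and Lipn overlaps a miRNA gene, none with a row under its symbol. How the authors' counting used strand is not given, so reads of the overlapped stretches cannot be told apart.

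**Figure D2:**
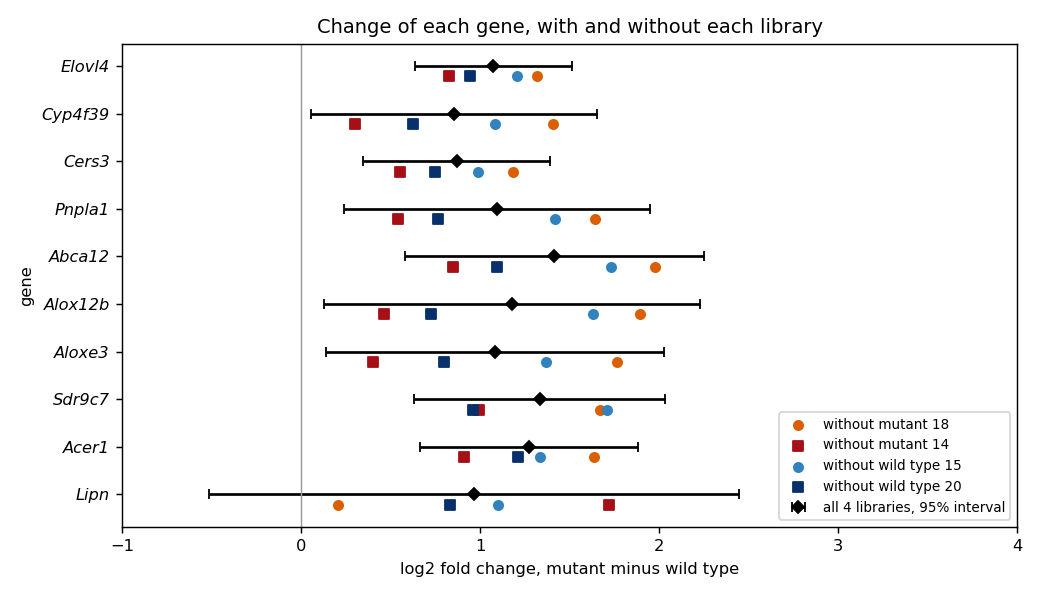
Log2 fold changes, mutant minus wild type, of the 10 genes: diamonds with bars are the estimates from all 4 libraries with their 95% intervals from limma, and coloured points are the estimates with 1 library left out. Every point lies above 0, the interval of Lipn includes 0, and the estimates without mutant 14 lie lowest for 8 of the genes.

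Library 14 set much of the size of these differences. Without mutant 14 the median log2 fold change of the 10 genes was 0.69, with 0.30 for Cyp4f39, 0.40 for Aloxe3, 0.46 for Alox12b, 0.54 for Pnpla1 and 0.55 for Cers3. Elovl4 at 0.83, Abca12 at 0.85, Acer1 at 0.91 and Sdr9c7 at 0.99 kept the larger differences among the 9, and Lipn was at 1.72. Without mutant 18 the median was 1.64 and Lipn was at 0.21. Because wild type 15 was the only library with high Xist, the comparison without it sets males against a male, and there the median was 1.35. Without wild type 20 it was 0.81.

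Compared per kilobase of annotated exon, the levels of the 10 genes had the same order in both genotypes except that Cyp4f39 and Sdr9c7 changed places. In mutant libraries Elovl4 averaged 1026 ± 244 normalized counts per kb and in wild type 483 ± 62.3 (SD, n = 2 each), the highest of the 10. Alox12b followed at 760 ± 493 in mutant and 313 ± 135 in wild type, so the pair could not be separated in mutant libraries, where their ranges overlapped. Cers3, Cyp4f39 and Sdr9c7 came next, from 208 to 244 in mutant and from 94.5 to 131 in wild type, with neighbours in that order overlapping in both genotypes. Acer1, Aloxe3 and Pnpla1 ran from 108 to 162 in mutant and from 48.3 to 64.8 in wild type, again with overlapping neighbours. Abca12 was at 81.2 ± 42.8 in mutant and 28.98 ± 8.90 in wild type, and Lipn was the lowest at 10.5 ± 7.37 in mutant and 4.61 ± 0.63 in wild type. Summed, the 10 genes made up 0.0311% and 0.0586% of all normalized counts in mutant 18 and 14, and 0.0231% and 0.0163% in wild type 15 and 20.

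Genes that work beside the members were read by role, with no test between lists. In 57 other genes of barrier lipid metabolism, in 4 lists by role, 0 passed the adjusted threshold in limma, and the median log2 fold change was 0.19. At an unadjusted limma p under 0.05 there were 15 higher and 1 lower. Over all genes tested, 4.27% were that low and 3.12% were that low and higher in mutant. The 16 at an unadjusted p under 0.05 became 3 without wild type 20, 5 without mutant 14 or with no mean-variance trend, and 7 with sex as covariate. Of the 14 genes of the lipoxygenase branch and acylceramide helpers, 12 had both mutant libraries above both wild-type libraries and 0 had both below, with a median of 0.94 (0.49 without mutant 14 and 1.48 without mutant 18). Both genotypes were likewise separated upward in 5 of 16 genes of fatty acid elongation and activation (median 0.093), 8 of 14 of ceramide backbone synthesis (0.23) and 5 of 13 of glucosylceramide and sphingomyelin turnover (0.13). Downward separation was seen in 0, 1 and 3 genes of these last 3 lists. Over all genes tested, 13.4% were separated upward and 14% downward.

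Among the helpers, Pla2g2f, a secreted phospholipase of epidermis, was at 1294 and 2420 in mutant 18 and 14 and at 769.9 and 562 in wild type 15 and 20 (log2 fold change 1.43, SE 0.29, limma adjusted p = 0.365). Nipal4, known as ichthyin from human ichthyosis, was at 372 and 810.4 in mutant 18 and 14 and at 279 and 146 in wild type 15 and 20 (1.44, SE 0.41, limma adjusted p = 0.695). Both showed the library order of 9 of the members. Ephx3, an epoxide hydrolase, was at 186 and 443 in mutant 18 and 14 and at 130.1 and 129 in wild type 15 and 20 (1.15, SE 0.38, limma adjusted p = 0.901). Tgm1, the transglutaminase that cross-links the cornified envelope, was at 709 and 1738 in mutant 18 and 14 and at 686 and 485 in wild type 15 and 20 (0.94, SE 0.38, limma adjusted p = 0.9999). Mutant 18 was near wild type 15 for Tgm1, as for the lipoxygenases. The lipase genes Lipk and Lipm, relatives of Lipn, had log2 fold changes of 1.18 (SE 0.31) and 1.14 (SE 0.30), both with mutant 14 above mutant 18, and Lipn over Lipm was 0.0383 and 0.0065 in mutant 18 and 14 against 0.0169 and 0.0181 in wild type 15 and 20. Abhd5, a co-activator of Pnpla1, was at 922 and 948 in mutant 18 and 14 and at 735 and 790.4 in wild type 15 and 20 (0.29, SE 0.14, limma adjusted p = 0.9999).

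The medians of the other 3 lists lay closer to 0, though single genes did not. Elovl1, an elongase with a broad tissue range, was at 2701 and 4323 in mutant 18 and 14 and at 1919 and 2044 in wild type 15 and 20 (log2 fold change 0.79, SE 0.21, limma adjusted p = 0.666). Its relative Elovl7 had 1.06 (SE 0.25), and the fatty acid activating enzyme genes Acsl1 and Slc27a4 had 0.68 (SE 0.23) and 0.36 (SE 0.18). The serine palmitoyltransferase subunit genes Sptlc3 and Sptlc1, which start sphingoid base synthesis, had 0.84 (SE 0.28) and 0.30 (SE 0.14), and Degs2, a desaturase and hydroxylase of ceramide, was between 2.97 and 17.2 in the 4 libraries with its genotypes overlapping. Ugcg, the enzyme that glucosylates ceramide, overlapped as well, at 1654 and 1857 in mutant 18 and 14 and at 1757 and 1558 in wild type 15 and 20 (0.083, SE 0.14). Sgms2, a sphingomyelin synthase gene, had lower values in mutant, at 9528 and 5639 in libraries 18 and 14 against 10752 and 10875 in wild-type libraries 15 and 20 (-0.56, SE 0.24, limma adjusted p = 0.9999). Without mutant 14 the log2 fold change of Sgms2 was -0.18, and without mutant 18 it was -0.94. Smpd1 and Asah2, a sphingomyelinase and a ceramidase gene, had 0.37 (SE 0.16) and 0.54 (SE 0.20). Cers1 was listed at 0 in wild type 15 and between 144 and 206 in the other libraries, and its estimate of 4.28 rests on that 0.

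**Figure D3:**
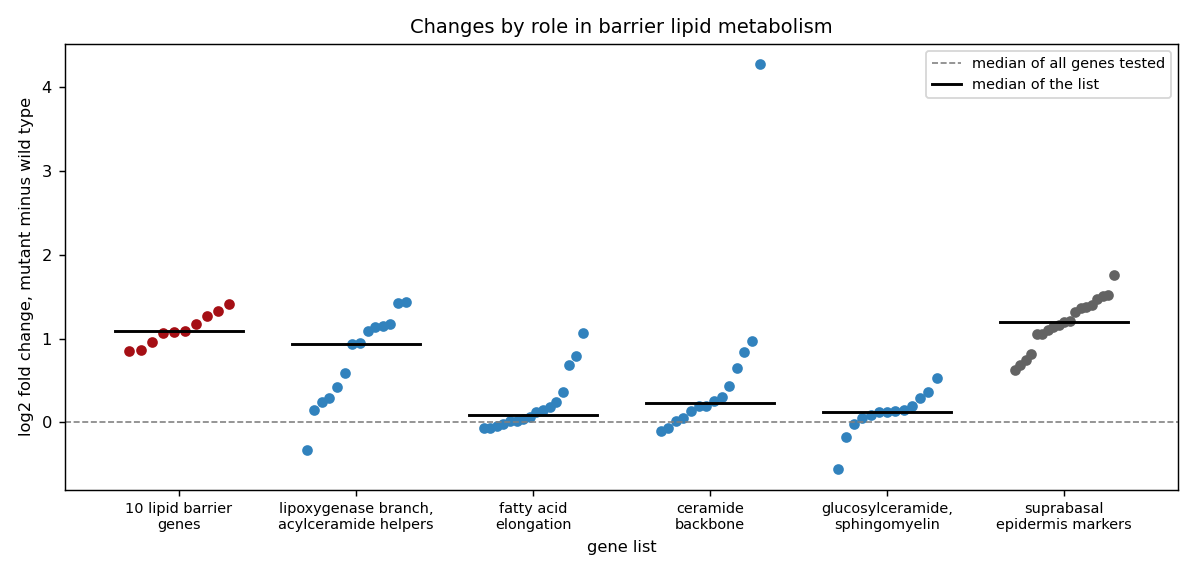
Log2 fold changes, mutant minus wild type, of single genes by list (points), with the list's median (black line) and the median of all genes tested (dashed line). The 10 lipid barrier genes (left) lie between 0.85 and 1.41, the medians of fatty acid elongation, ceramide backbone and glucosylceramide genes lie between 0.093 and 0.23, and the point at 4.28 is Cers1. Suprabasal epidermis markers (right) have a median of 1.20.

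Markers of suprabasal epidermis, the layers that run this pathway, had a median log2 fold change of 1.20, beside 1.09 for the members. Without mutant 14 the medians of markers and members were 0.99 and 0.69, and without mutant 18 they were 1.40 and 1.64. Of 20 listed markers 19 had a row. In 17 of the 19 both mutant libraries were above both wild-type libraries, where 13.4% of all genes tested showed this. The adjusted threshold in limma was passed by 0 of them. At an unadjusted limma p under 0.05 there were 17, all higher in mutant, where 3.12% of all genes were that low and higher. Krt10 was at 44334 and 75914 in mutant 18 and 14 and at 26688 and 18842 in wild type 15 and 20. Krt1, its partner keratin gene, was at 43207 and 63337 in mutant 18 and 14 and at 26194 and 16815 in wild type 15 and 20. Hrnr, encoding the cornified envelope protein hornerin, was at 22753 and 37407 in mutant 18 and 14 and at 12601 and 8143 in wild type 15 and 20. Krt10, Krt1 and Hrnr had the library order seen in 9 of the 10 members. Only 8 of the 19 markers had that order, where 4.86% of all genes tested did. The list summed to 161144 and 264739 in mutant 18 and 14 and to 94557 and 72553 in wild type 15 and 20, and no marker with a row was at 0. Measured against these markers, the members did not separate the genotypes: their mean log2 level minus that of the markers was -2.72 and -2.41 in mutant 18 and 14 and -2.25 and -2.74 in wild type 15 and 20. The group means of that difference were -2.57 ± 0.22 in mutant and -2.49 ± 0.34 in wild type (SD, n = 2 each), so mutant minus wild type was -0.074. The wild-type libraries had nearly equal marker levels (10.55 each as mean log2) while the members stood at 8.30 in wild type 15 and 7.81 in wild type 20.

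Other cell types were followed by lists as well. Beside the counts that follow, 13.4% of all genes tested had both mutant libraries above both wild-type libraries, and 14% had both below. Basal epithelial markers had 2 of 8 genes above wild type in both mutant libraries and summed to 50082 and 59844 in mutant 18 and 14 and to 34752 and 50457 in wild type 15 and 20. Krt5 and Krt14, the basal keratin genes, overlapped between genotypes, and Krt15 had a log2 fold change of 0.59 (SE 0.23). Suprabasal markers of oral lining had 2 of 8 tested genes above, among them Krt4 (0.35, SE 0.19) and Krt13 (0.43, SE 0.21), with Krt6a overlapping, and summed to 53094 and 72934 in mutant 18 and 14 and to 45251 and 48921 in wild type 15 and 20. Their part in the result was not tested.

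Salivary gland markers summed to 45.9 and 6178 in mutant 18 and 14 and to 21.7 and 4.98 in wild type 15 and 20, so they moved with mutant 14, the library in which 9 of the 10 members were highest. The secretory gene Smgc was at 0.953 and 4219 in mutant 18 and 14 and listed at 0 in wild type, Bpifa2 was at 1009 in mutant 14 and listed at 0 in the others. Of the 8 markers 6 were at 0 in at least 1 library (Dcpp1, Dcpp2, Smgc, Bpifa2, Muc19 and Prol1), and Dcpp3 was at 19.1 and 408 in mutant 18 and 14 and at 1.05 and 0.981 in wild type 15 and 20. Melanocyte markers were above wild type in both mutant libraries in 6 of 7 genes, where 13.4% of all genes tested were. They summed to 758 and 1020 in mutant 18 and 14 and to 655 and 576 in wild type 15 and 20. Dct, a pigment enzyme gene, was at 81.9 and 113 in mutant 18 and 14 and at 34.7 and 59.1 in wild type 15 and 20, Mitf was at 303 and 269 in mutant 18 and 14 and at 249.97 and 259 in wild type 15 and 20, and Sox10 overlapped. Of 9 tooth and dental arch markers, 0 were above wild type and 5 below it in both mutant libraries. Over all genes tested these shares were 13.4% and 14%. The other 4 markers overlapped, among them Amelx, Enam and Dspp with log2 fold changes of 1.15, 0.24 and 0.19. The sums overlapped too, and the list summed to 17513 and 10017 in mutant 18 and 14 and to 15066 and 22081 in wild type 15 and 20. Whether the RNA of these cells bears on the members' values was not tested.

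Lipn was higher in mutant 18 than in mutant 14, as were markers of more than 1 cell type. Among suprabasal epidermis markers this held for Flg2 (1561 and 696 in mutant 18 and 14), Lce1m (2144 and 1887), Lce1b (712 and 442) and Krt2 (80.9 and 27.4). All other suprabasal markers with a row went the other way, with mutant 14 above mutant 18, as did 52% of all genes tested. Hair follicle markers summed to 3584 and 2217 in mutant 18 and 14 and to 2382 and 2129 in wild type 15 and 20. In 3 of the 8 both mutant libraries were above both wild-type libraries, where 13.4% of all genes tested showed this. Krt71, of the inner root sheath, was at 959.7 and 439.6 in mutant 18 and 14 and at 568 and 425 in wild type 15 and 20. Tchh, of the same sheath, was at 1331 and 644 in mutant 18 and 14 and at 853 and 648 in wild type 15 and 20, while Lef1 was lowest in mutant 18 (388 and 572 in mutant 18 and 14, 505 and 562 in wild type 15 and 20). Sebaceous gland markers summed to 3063 and 3670 in mutant 18 and 14 and to 2595 and 2369 in wild type 15 and 20. Most of that sum came from Far2, Soat1 and Plin2, of which only Far2 separated the genotypes. Far2 was at 678 and 1798 in mutant 18 and 14 and at 612 and 318 in wild type 15 and 20. It was the only sebaceous marker with mutant 14 above mutant 18, and all others were higher in mutant 18. Of these, Scd3 also separated the genotypes (400 and 166 in mutant 18 and 14, 139 and 159 in wild type 15 and 20). The share of these cells in the Lipn values was not tested.

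**Figure D4:**
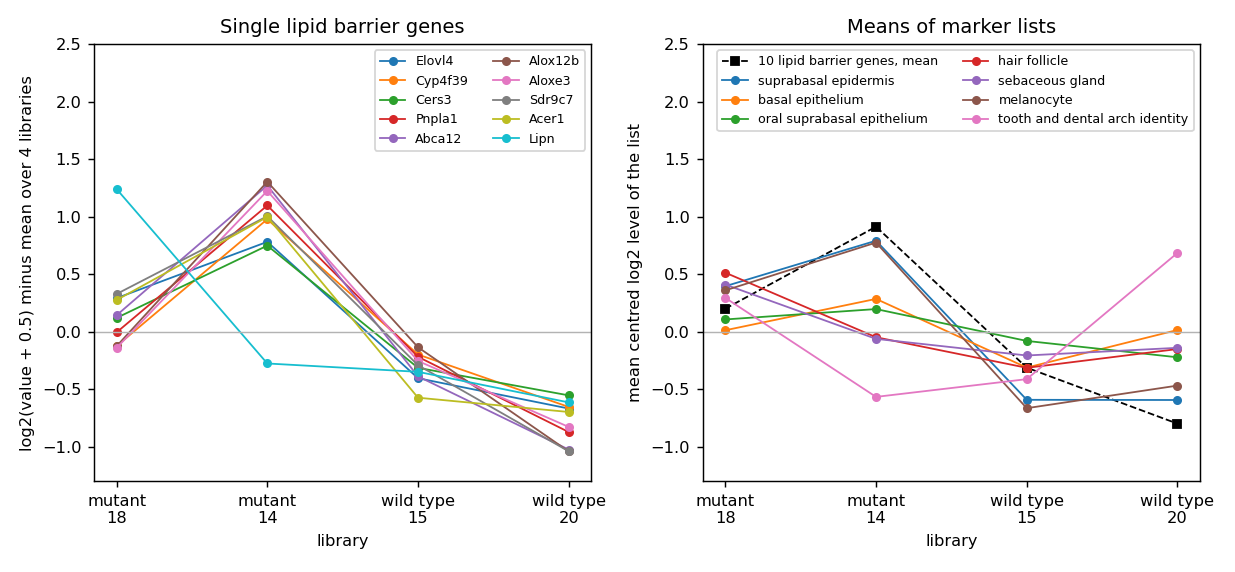
Log2 level in each library minus the gene's mean over the 4 libraries, for single lipid barrier genes (left) and as means of marker lists (right), with the salivary gland list left out because its range is far wider. The mean of the 10 genes (dashed) is highest in mutant 14, at 0.91, and lowest in wild type 20, at -0.80, and Lipn is the one of the 10 genes that peaks in mutant 18, as the hair follicle and sebaceous gland means do.

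Genes outside all lists were ranked by how closely their centred log2 profile over the 4 libraries matched the mean profile of the 10 genes. Among 12970 candidates with a mean of at least 50 normalized counts, the 10 nearest were Fut2, Wfdc5, Il20rb, Nkpd1, Pof1b, Prss8, Rbp2, Susd2, March3 and Tmem40, at root mean square distances of 0.037 to 0.087 log2 units. The most abundant of them, Pof1b, was at 2052 and 3194 in mutant 18 and 14 and at 1255 and 978 in wild type 15 and 20. Distances of single members from the mean of the other 9 ran from 0.13 for Elovl4 to 0.33 for Alox12b, and reached 0.88 for Lipn. With 4 libraries such likeness describes the libraries and is no test.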

How the data were processed

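RNA-seq libraries of mandibular dental arches (2 mutant, 2 wild type) were analysed from 1 deposited table. Per the labels' protocols, RNA was column-purified and a stranded mRNA kit was used. Per the submitters' processing notes, DESeq2 and build mm10 were used, with no version. For the aligner, counter, strand setting and annotation the entry is "not given in the sources used here". Deposited signal values are normalized counts, not whole reads. Median-of-ratios factors recomputed from them were equal in all 4 libraries (1.0006), so depth was already scaled. The deposited columns were matched to samples by the codes in their titles.

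The planned fallback for normalized values was used: a filter kept the 17979 of 24972 rows averaging 1 or more, log2(value + 0.5) was taken, and limma 3.58.1 (R 4.3.3) estimated the genotype effect, its variance prior following mean level, with Benjamini-Hochberg adjustment over all genes kept. The fit was tested on simulated data. Every pair of libraries differed beyond sampling noise (chi-square at least 16.1 times its degrees of freedom, over genes with 10 or more summed counts). Members, lists and motifs were chosen with earlier results of these data known. All members are named, and of other lipid genes the 3 with the smallest p per list plus 8 fixed ones. Of marker lists the 3 most abundant genes are named, and a few others chosen after their values were seen. The 10 genes nearest in profile are named, leaving out provisional gene names. Coordinates and promoters are from RefSeq GRCm38.p6, exon lengths and strands from GENCODE M21 (GRCm38), the assembly that mm10 denotes. All 10 members matched. Alternatives covered pseudocount, filter, scaling, variance model, sex and each library left out.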

Additional observations from a re-analysis of the deposited data

How the results depend on the processing

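None of the 10 genes passed the adjusted threshold in any of the 13 alternatives. The smallest limma adjusted p was 0.145, for Elovl4 with robust variance shrinkage. All kept a higher mutant value (130 of 130 estimates), but that count is no test of direction. Because no member overlapped between genotypes, leaving out a library or changing the pseudocount could not turn its sign. Filter and variance settings left the estimates unchanged, and sex as covariate gave the estimates found without wild type 15. The count of genes called over the whole table was 2 and moved to 4 with pseudocount 1, 4 with robust shrinkage, 1 with no filter, 1 with no mean-variance trend and 0 with sex as covariate (524 genes at an unadjusted p under 0.05). With 1 library left out it ran from 0 to 6, the 0 arising without mutant 18 (1219 at an unadjusted p under 0.05) and without mutant 14 (447), against 3 without wild type 15 and 6 without wild type 20. A lone library in such a fit is assumed to vary like the others. The level of the members relative to suprabasal markers (-0.074) ran from -0.32 without wild type 20 to 0.17 without wild type 15, changing sign. Ugcg turned from 0.083 to -0.00066 without mutant 14 and -0.0034 without wild type 20, with its log2 fold change at most 0.17 in the other fits without a library. The sample codes do not show whether libraries of the genotypes are paired, so no paired analysis was made. With 2 libraries per genotype, precision is limited by their spread, and for Lipn also by its low level.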
